A study of Mus musculus with 6 samples.

Results

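The genes of glycolysis and of the response to low oxygen were followed as 36 named genes, chosen by symbol from the deposited count table for their known function. They comprised 2 subunits of the hypoxia-inducible factor (HIF), 2 oxygen sensors, 2 glucose transporters, 17 glycolytic enzymes, 3 regulators of glycolytic flux, 2 lactate transporters and 8 other HIF targets. All 36 were among the 51361 rows of the table, and all 36 passed the filter on low counts that left 16657 genes for testing. The libraries were labelled as regulatory T cells (Tregs, the CD4+ T cells that restrain immune responses), sorted as CD4+CD25+Foxp3+ cells from 9-week-old male C57BL/6N mice carrying the transgene Tg(Foxp3-DTR/EGFP)23.2Spar. This transgene places a fusion of the diphtheria toxin receptor and green fluorescent protein under Foxp3 control, and all 3 groups carried it. By label, the first group held brain cells of this sort, and the second blood cells, 14 days after a 60 min transient middle cerebral artery occlusion (tMCAO), an experimental ischaemic stroke. The third group, sham blood, held blood cells sorted likewise after a sham operation. Each group had 2 libraries of 500 to 1000 cells, sequenced as bulk RNA. Whether a group's libraries stem from different mice, or from pooled mice, is not said in the labels. The p-values therefore reflect library-to-library spread, which may be technical only.

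Glycolysis splits glucose to pyruvate in the cytosol, and lactate dehydrogenase can turn pyruvate to lactate, which leaves the cell through monocarboxylate transporters. When oxygen is short, prolyl hydroxylases no longer mark the HIF alpha subunits for destruction, and the stabilised factor binds short DNA elements and raises transcription of glucose transporters, glycolytic enzymes and genes such as Vegfa. Activated effector T cells and inflammatory macrophages are known for high glycolysis, whereas Tregs are known to rely more on mitochondrial oxidation, with glycolysis used during proliferation and migration.

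Total counts ran from 14348179 to 24460894 per library. Markers of other cell types differed widely between the groups. The 17 T cell genes took 0.03% and 0.156% of counts in the tMCAO brain libraries 1 and 2, 0.069% and 0.456% in those of tMCAO blood, and 0.916% and 0.886% in those from sham mice. Foxp3, the factor that defines Tregs and marked the cells in the sort, stood at 0.726 and 19.6 CPM (counts per 1e6, scaled to library sizes adjusted by TMM, a method that balances composition between libraries) in tMCAO brain, 0.538 and 5.18 in the tMCAO blood libraries and 50.1 and 60.7 in the sham libraries. Microglia were represented by 16 markers, with 2.49% and 2.13% of tMCAO brain counts, 0.517% and 0.319% in the tMCAO blood libraries and 0.0343% and 0.0579% in the sham libraries. Sall1, a transcription factor of microglia, had 0 counts in all 4 blood libraries and 25.1 and 34.2 CPM in tMCAO brain. The 16 monocyte and macrophage markers took 3.15% and 1.24%, 3.76% and 1.56%, and 0.742% and 0.590% in the same order. Lyz2, a lysozyme gene of these cells, stood at 30330 and 8455 CPM in the brain libraries, 21490 and 4980 in the tMCAO blood libraries and 5882 and 4863 in the sham libraries. The microglia and the monocyte and macrophage lists share Csf1r. In tMCAO blood 1 the microglia markers C1qb and C1qc had 2985 and 1363 CPM, but Fcrls and Sparc 5.60 and 0.054, so the list's blood share does not measure microglia alone. The monocyte and macrophage markers thus exceeded the T cell genes in all 4 tMCAO libraries, which goes against the label of sorted Tregs, most in tMCAO brain 1 and tMCAO blood 1, where Foxp3 was under 1 CPM. In both sham libraries the T cell genes were the higher of the 2 lists. Neutrophil markers, a list of 12, surpassed the T cell genes in tMCAO blood 2 (0.789%) and tMCAO brain 1 (0.175%). They stayed below them in tMCAO blood 1 (0.031%), tMCAO brain 2 (0.0249%) and the sham libraries (0.00211% and 0.00214%). What neutrophils contributed to the differences reported below was not tested. Red cells, marked by 10 genes, contributed 15.3% and 16.7% of the counts of the sham libraries, 0.107% and 3.82% of those of tMCAO blood, and at most 0.000146% in brain. In bulk samples, fewer cells of a type and less RNA per cell cannot be told apart.

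Between tMCAO brain and tMCAO blood, 4 of the 36 genes rose and 0 fell by edgeR's quasi-likelihood test at a Benjamini-Hochberg adjusted p under 0.05. The 4 were Pfkfb3, Ldhb, Bnip3 and Egln3. Over all genes tested, 3.53% were called higher and 1.37% lower in this comparison, 4.9% in either direction. At an unadjusted p under 0.05, 9 of the 36 were higher and 2 lower, for which no share over all genes was taken. DESeq2 called 7 of the 36 higher and 2 lower, and 2088 and 1363 of all 16657 genes tested. By limma-voom 7 of the 36 were higher and 1 lower, against 997 and 449 of all 16657. The 36 genes had a median log2 difference of 0.70, against 0.06 over all genes tested. The 2 libraries of tMCAO brain lay above both of tMCAO blood in 19 of the 36, and below both in 2, where 31.4% and 25.9% of all genes did so. When libraries were scaled by their totals in place of TMM, the median over all genes moved to -0.16 and that of the 36 to 0.45, and the calls over all genes shifted from 588 higher and 228 lower to 460 higher and 393 lower. Under that scaling 3 of the 4 kept their call, Egln3 lost it, and Egln1 passed as lower. In a fit of only these 2 groups none of the 4 passed (edgeR adjusted p 0.0617 to 0.1079). That fit called 22 of all 16024 genes tested higher and 4 lower, so the loss was not particular to the 4.

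Between tMCAO blood and sham blood, 2 of the 36 genes rose, Epas1 and Hk2, and 1 fell, Bnip3l. Of all genes tested, 4.33% were called higher and 3.15% lower, 7.48% in either direction. The median log2 difference of the 36 was 0.27, against 0.11 over all genes. In 11 of the 36 both tMCAO blood libraries lay above both sham blood libraries and in 8 below, against 33.6% and 30.4% of all genes. Scaling by library totals moved the calls over all genes from 722 higher and 524 lower to 946 higher and 393 lower, with medians of 0.22 over all genes and 0.38 over the 36.

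Between tMCAO brain and sham blood, 7 of the 36 genes rose, Epas1, Vegfa, Slc2a1, Hk2, Pfkfb3, Slc16a3 and Bnip3, and 1 fell, Bnip3l. Of all genes tested, 8.01% were called higher and 2.62% lower, 10.6% in either direction. Their median log2 difference was 0.71, against 0.09 over all genes. Both tMCAO brain libraries lay above both sham blood libraries in 21 of the 36 and below in 8, where 34.9% and 29.7% of all genes did so. The 3 comparisons share groups of libraries, so their results are not independent of each other. In all, 10 of the 36 genes were called in at least 1 comparison and 26 in none, and 11 of these 26 were called under no alternative setting either.

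**Figure D1:**
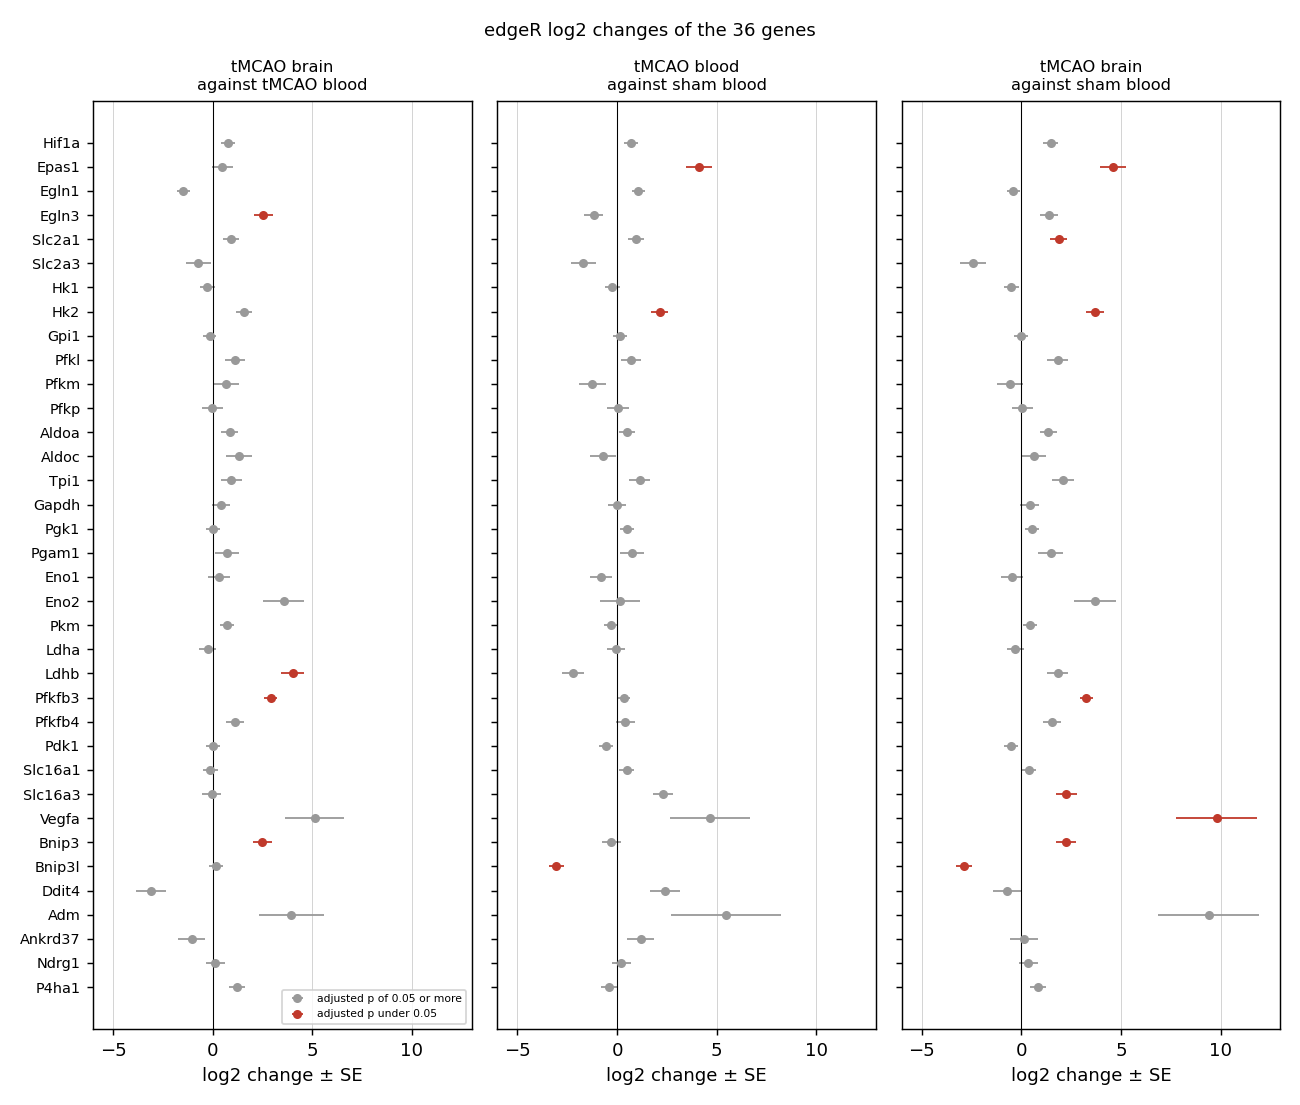
Log2 differences (points) with standard errors (bars) of the 36 genes in the 3 comparisons, from 1 edgeR fit to all 6 libraries, with genes that passed an adjusted p of 0.05 in red. Red points mark 4 genes in the left panel, 3 in the middle and 8 on the right, and Bnip3l lies at -3.04 and -2.88 in the middle and right panels.

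The 2 libraries of lowest T cell share in the tMCAO groups were tMCAO brain 1 and tMCAO blood 1. With all 6 libraries the median log2 differences of the 36 were 0.70, 0.27 and 0.71 in the 3 comparisons, in the order above. With tMCAO brain 1 and tMCAO blood 1 left out these medians were 0.96, -0.14 and 0.78, against 0.08, 0.05 and 0.11 over all genes. In that fit the spread between libraries came from the 2 sham blood libraries alone, and the single tMCAO libraries were assumed to vary like them.

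Of the HIF subunits, Hif1a encodes the broadly expressed alpha subunit. Its level was 173 and 266 CPM in the brain libraries, 156 and 103 in the tMCAO blood libraries and 72.5 and 87.0 in the sham libraries. The groups did not overlap, in the order brain, tMCAO blood, sham blood, but no difference passed. On the log2 scale, tMCAO brain exceeded tMCAO blood by 0.76 ± 0.35 (SE; edgeR adjusted p = 0.218) and sham blood by 1.46 ± 0.36 (0.0528), and tMCAO blood exceeded sham blood by 0.70 ± 0.35 (0.235). Epas1 (chromosome 17, 86753700 to 86833410, plus strand, GRCm38) encodes HIF-2alpha, the subunit known from endothelial cells and macrophages. It stood at 5.20 and 8.09 CPM in the brain libraries, 5.38 and 4.14 in the tMCAO blood libraries and 0.257 and 0.282 in the sham libraries, where each library held 4 counts. Both tMCAO groups lay far above sham blood and overlapped each other. Epas1 rose 17.3-fold in tMCAO blood over sham blood (log2 4.11 ± 0.64, edgeR adjusted p = 0.0316) and 24.2-fold in tMCAO brain over sham blood (log2 4.59 ± 0.65, edgeR adjusted p = 0.0152). Its difference between tMCAO brain and tMCAO blood was 0.48 ± 0.53 on the log2 scale (edgeR adjusted p = 0.587). Both calls were lost without sham blood 1 or sham blood 2, and the first also without tMCAO blood 1 (edgeR adjusted p 0.099 to 0.269 for the first and 0.139 to 0.149 for the second). In each of these fits 0 of all genes were called in that comparison, so the losses were not particular to Epas1. The same holds for later calls against sham blood lost without a sham library, or in tMCAO blood without tMCAO blood 1. Between tMCAO brain and tMCAO blood, fewer of all genes were called without any 1 of the 6 libraries. Losses of single calls there came with losses over all genes. Summed monocyte and macrophage markers also stood higher in both tMCAO groups (1.24% to 3.76% of counts) than in sham blood (0.590% and 0.742%). Their part in the result was not tested. Single markers did not all follow the sum. Cd68 had 2340 and 1040 CPM in the brain libraries and 112.8 and 133.5 in the sham libraries. Ccr2 had 82.1 and 198.9 CPM in brain against 324.1 and 231.6 in sham blood, and Chil3 24.0 and 1.88 against 110.8 and 169.5.

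The oxygen sensors were ordered differently over the groups. Egln3 (chromosome 12, 54178981 to 54203860, minus strand) encodes the prolyl hydroxylase PHD3, itself a HIF target that acts as feedback. Its levels were 10.04 and 13.3 CPM in the brain libraries, 1.99 and 1.99 in the tMCAO blood libraries and 5.20 and 3.80 in the sham libraries. Both brain libraries were above all 4 blood libraries, and tMCAO blood lay below sham blood. Egln3 rose 5.85-fold in tMCAO brain over tMCAO blood (log2 2.55 ± 0.49, edgeR adjusted p = 0.0438). Leaving out any of the 6 libraries in turn ended this call (edgeR adjusted p 0.0877 to 0.129), while the log2 difference stayed between 2.33 and 2.73. With the replicate number as a block the call was lost too (edgeR adjusted p = 0.0628). Against sham blood the log2 difference of tMCAO brain was 1.38 ± 0.47 (edgeR adjusted p = 0.109), and that of tMCAO blood was -1.17 ± 0.47 (edgeR adjusted p = 0.161). Egln1 encodes PHD2, the main oxygen sensor of the HIF pathway. It was measured at 13.7 and 12.4 CPM in the brain libraries, 37.7 and 34.3 in the tMCAO blood libraries and 20.7 and 13.8 in the sham libraries, highest in both tMCAO blood libraries. Its log2 difference of -1.46 ± 0.32 between tMCAO brain and tMCAO blood missed the threshold (edgeR adjusted p = 0.0564).

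Slc2a1 and Slc2a3 encode the glucose transporters GLUT1 and GLUT3. Slc2a1 (chromosome 4, 119108711 to 119137983, plus strand) stood at 59.2 and 77.6 CPM in the brain libraries, 49.4 and 23.3 in the tMCAO blood libraries and 16.95 and 20.6 in the sham libraries. The 3 groups did not overlap. It rose 3.64-fold in tMCAO brain over sham blood (log2 1.86 ± 0.42, edgeR adjusted p = 0.0425). This call was lost on leaving out any 1 of the brain and sham blood libraries (edgeR adjusted p 0.0841 to 0.28). The steps from sham blood to tMCAO blood (log2 0.95 ± 0.41, edgeR adjusted p = 0.181) and from tMCAO blood to tMCAO brain (0.91 ± 0.41, edgeR adjusted p = 0.204) did not pass. Slc2a3, the high-affinity transporter typical of neurons and lymphocytes, was highest in sham blood instead, with 12.9 and 12.05 CPM in the brain libraries, 7.91 and 33.2 in the tMCAO blood libraries and 59.5 and 74.5 in the sham libraries. Both sham blood libraries were above the other 4, with a log2 difference of -2.43 ± 0.65 for tMCAO brain against sham blood (edgeR adjusted p = 0.0639).

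The hexokinases trap glucose as glucose 6-phosphate. Hk2 (chromosome 6, 82725025 to 82774454, minus strand), the inducible isoform, stood at 166 and 173.5 CPM in the brain libraries, 78.9 and 36.3 in the tMCAO blood libraries and 13.9 and 12.4 in the sham libraries. All 3 groups were separate, with brain highest. Hk2 rose 12.9-fold in tMCAO brain over sham blood (log2 3.69 ± 0.44, edgeR adjusted p = 0.0117) and 4.38-fold in tMCAO blood over sham blood (log2 2.13 ± 0.41, edgeR adjusted p = 0.0395). The difference between tMCAO brain and tMCAO blood was 1.56 ± 0.40 on the log2 scale (edgeR adjusted p = 0.0733). The first call was lost without sham blood 1 or sham blood 2 (edgeR adjusted p 0.1204 and 0.1218), and the second without any library but tMCAO blood 2 (0.0511 to 0.302) and, with all libraries, by limma-voom (adjusted p = 0.0538). Hk1, the constitutive isoform, was at 19.6 and 37.7 CPM in the brain libraries, 30.3 and 38.4 in the tMCAO blood libraries and 40.4 and 40.8 in the sham libraries. It was called in no comparison.

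No enzyme of the next steps was called in any comparison. Gpi1, the isomerase of glucose 6-phosphate, had nearly level groups, at 219 and 209 CPM in the brain libraries, 301 and 175 in the tMCAO blood libraries and 217 and 214.5 in the sham libraries. Phosphofructokinase, which commits sugar to glycolysis, has a liver, a muscle and a platelet isoform. Pfkl, the liver form, stood at 111 and 117 CPM in the brain libraries, 79.0 and 26.01 in the tMCAO blood libraries and 27.1 and 37.2 in the sham libraries, with both brain libraries above the other 4. Its log2 difference was 1.82 ± 0.53 for tMCAO brain against sham blood (edgeR adjusted p = 0.0764). Pfkp, the platelet form, ranged from 54.6 CPM in tMCAO brain 1 to 169.8 CPM in tMCAO brain 2, which enclosed the other 4 libraries. Pfkm, the muscle form, stayed under 10 CPM in all 6 libraries (1.67 to 9.92 CPM).

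Aldolase A, triose phosphate isomerase and phosphoglycerate mutase shared a pattern of levels without passing the test. Aldoa, which splits the hexose, was at 929 and 754 CPM in the brain libraries, 628 and 302.5 in the tMCAO blood libraries and 327.5 and 331 in the sham libraries. Tpi1, which interconverts the resulting trioses, was at 502 and 346 CPM in the brain libraries, 333 and 110.1 in the tMCAO blood libraries and 103.6 and 97.95 in the sham libraries. Pgam1, a mutase of the lower part of the pathway, was at 56.3 and 59.5 CPM in the brain libraries, 56.3 and 13.9 in the tMCAO blood libraries and 20.0 and 21.9 in the sham libraries. In all 3 genes both brain libraries lay above both sham blood libraries, and tMCAO blood 1 lay nearer the brain libraries while tMCAO blood 2 lay nearer sham blood. Against sham blood the log2 differences of tMCAO brain were 1.35 ± 0.42 for Aldoa (edgeR adjusted p = 0.0914), 2.07 ± 0.55 for Tpi1 (0.064) and 1.46 ± 0.61 for Pgam1 (0.169). Aldoc, the brain isoform of aldolase, was low throughout (3.01 to 17.3 CPM).

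The enzymes from Gapdh to Pkm were called in no comparison either. Gapdh, often used as a reference gene, stood at 1015 and 831 CPM in the brain libraries, 977 and 416 in the tMCAO blood libraries and 701 and 688 in the sham libraries. The tMCAO blood libraries spanned both other groups but for tMCAO brain 1. Gapdh of tMCAO brain differed from tMCAO blood by 0.41 ± 0.46 (edgeR adjusted p = 0.595) and from sham blood by 0.41 ± 0.46 (0.603) on the log2 scale, and tMCAO blood differed from sham blood by 0.0034 ± 0.46 (1.0). Pkm, pyruvate kinase, was at 622 and 576 CPM in the brain libraries, 453 and 272 in the tMCAO blood libraries and 419 and 465 in the sham libraries. On the log2 scale, Pkm of tMCAO brain exceeded tMCAO blood by 0.72 ± 0.35 (edgeR adjusted p = 0.237) and sham blood by 0.44 ± 0.35 (0.453), and tMCAO blood differed from sham blood by -0.28 ± 0.35 (0.618). Both brain libraries were thus highest for Pkm, without a call. Pgk1, phosphoglycerate kinase, lay between 75.6 and 145 CPM over the 6 libraries. Eno1, the ubiquitous enolase, was highest in sham blood (716 and 734 CPM) and lowest in tMCAO blood 2 (192 CPM). Eno2, the enolase known from neurons, had 10.3 and 10.1 CPM in the brain libraries, 0.162 and 1.54 in the tMCAO blood libraries and 0.513 and 1.06 in the sham libraries. On the log2 scale, Eno2 of tMCAO brain exceeded tMCAO blood by 3.56 ± 1.04 (edgeR adjusted p = 0.0918) and sham blood by 3.70 ± 1.06 (0.0741).

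**Figure D2:**
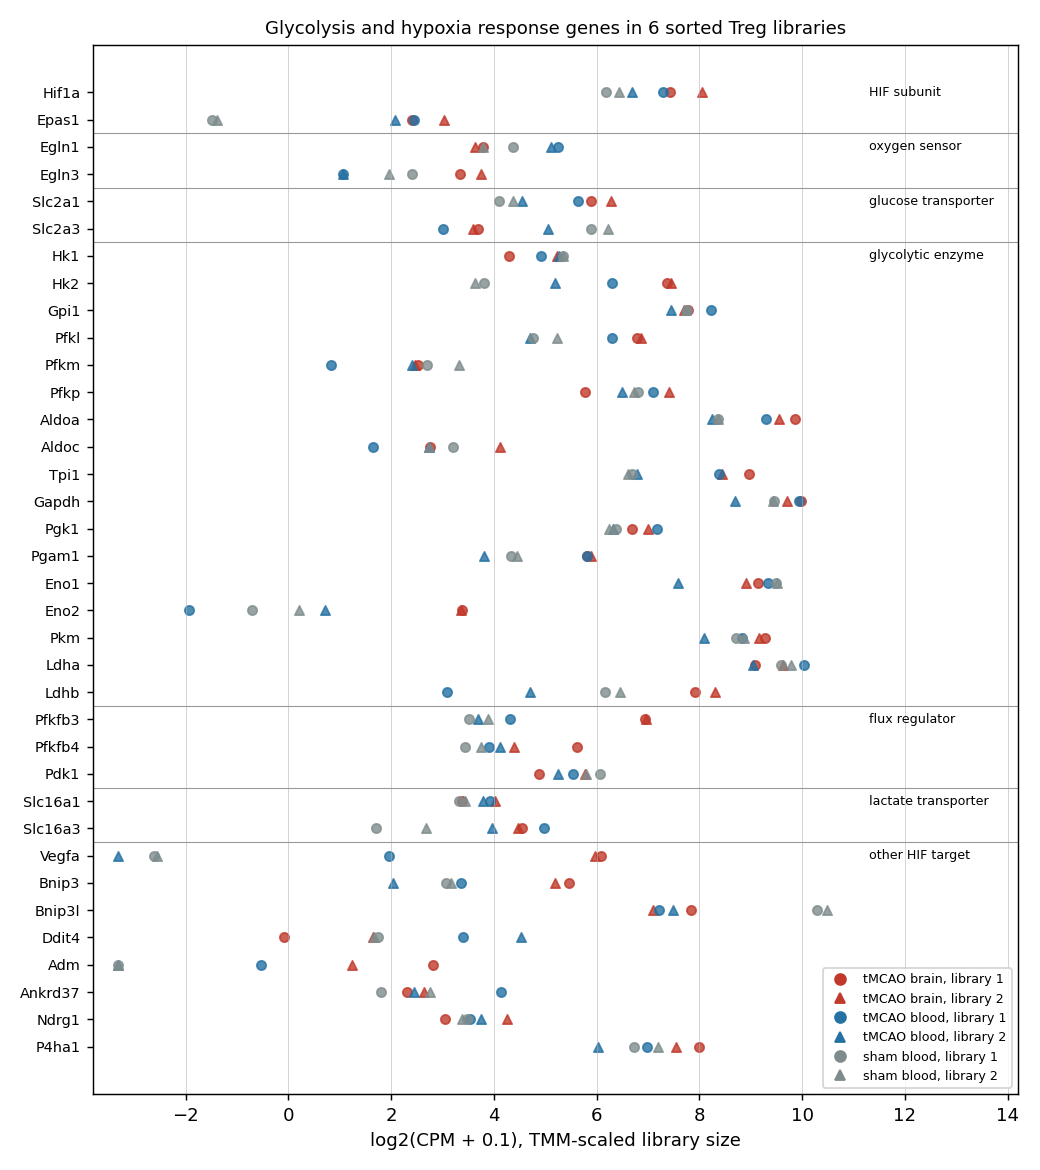
Level of each of the 36 genes in each library as log2(CPM + 0.1), with 1 point per library, colours for groups, shapes for library numbers and genes ordered by role. Ldhb and Pfkfb3 of the tMCAO brain libraries lie right of all blood libraries, Bnip3l of sham blood lies near 10 and right of the other 4, and the groups overlap for Ldha (528 to 1055 CPM).

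Lactate dehydrogenase is a tetramer of A and B subunits, of which the A subunit favours making lactate from pyruvate and the B subunit the reverse. Ldha stood at 545 and 791 CPM in the brain libraries, 1055 and 528 in the tMCAO blood libraries and 767 and 886 in the sham libraries, and the groups overlapped. On the log2 scale, Ldha of tMCAO brain differed from tMCAO blood by -0.25 ± 0.44 (edgeR adjusted p = 0.747) and from sham blood by -0.31 ± 0.44 (0.685), and tMCAO blood differed from sham blood by -0.06 ± 0.44 (0.941). Ldhb (chromosome 6, 142490249 to 142507957, minus strand) was at 242 and 317 CPM in the brain libraries, 8.45 and 25.96 in the tMCAO blood libraries and 71.4 and 87.5 in the sham libraries. The 3 groups were separate, with brain highest and tMCAO blood lowest. Ldhb rose 16.2-fold in tMCAO brain over tMCAO blood (log2 4.02 ± 0.59, edgeR adjusted p = 0.0272), the largest fold of the genes called in this comparison among the 36. The call was lost without tMCAO brain 2, sham blood 1 or sham blood 2 (edgeR adjusted p 0.0592 to 0.0901), with log2 differences from 3.42 to 5.03 over the 6 omissions. Against sham blood, tMCAO blood differed by -2.21 ± 0.55 (edgeR adjusted p = 0.0601) and tMCAO brain by 1.81 ± 0.54 (edgeR adjusted p = 0.0794) on the log2 scale, neither past the threshold. The row of the copy Ldhb-ps held at most 0.96% of the Ldhb count in any library.

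Pfkfb3 (chromosome 2, 11471433 to 11554077, minus strand) encodes an enzyme that makes fructose 2,6-bisphosphate, the strongest activator of phosphofructokinase. It stood at 123 and 125 CPM in the brain libraries, 19.9 and 12.8 in the tMCAO blood libraries and 11.4 and 14.7 in the sham libraries. The brain libraries were nearly the same and far above the 4 blood libraries, which overlapped. Pfkfb3 rose 7.60-fold over tMCAO blood (log2 2.93 ± 0.33, edgeR adjusted p = 0.0182) and 9.54-fold over sham blood (log2 3.25 ± 0.33, edgeR adjusted p = 0.00956). Between tMCAO blood and sham blood its log2 difference was 0.33 ± 0.31 (edgeR adjusted p = 0.51). The first call was lost without tMCAO blood 2, sham blood 1 or sham blood 2 (edgeR adjusted p 0.0548 to 0.0639), and the second without sham blood 1 or sham blood 2 (0.101 and 0.112). Microglia markers were also highest in the brain libraries (2.13% to 2.49% of counts, against at most 0.517% in blood). Dendritic cell markers, a list of 10, were likewise highest there (0.0748% and 0.176%, against at most 0.0712% in blood). The part of both lists in this result and in those of Ldhb, Egln3, Bnip3, Vegfa, Hk2 and Slc2a1 was not tested. Pfkfb4, a related enzyme, had 49.0 and 20.8 CPM in the brain libraries, 15.0 and 17.3 in the tMCAO blood libraries and 10.7 and 13.4 in the sham libraries, and passed in no comparison. Pdk1, the kinase that shuts pyruvate out of mitochondria, ranged from 29.3 to 67.0 CPM with no call.

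The promoters of 5 of these genes are shown because Ldhb, Pfkfb3, Hk2 and Egln3 were called and Ldha, the partner of Ldhb, was not. Each line gives the 250 bases before a RefSeq transcription start (GRCm38.p6), 5′ to 3′ on the strand of the gene. Capitals mark the core of the HIF element, ACGTG or GCGTG, on either strand, where the other strand reads CACGT or CACGC. A palindromic CACGTG, which other factors of the E-box type also bind, holds ACGTG on both strands and counts as 2 matches.
Ldha, chr7:46845554-46845803, plus strand: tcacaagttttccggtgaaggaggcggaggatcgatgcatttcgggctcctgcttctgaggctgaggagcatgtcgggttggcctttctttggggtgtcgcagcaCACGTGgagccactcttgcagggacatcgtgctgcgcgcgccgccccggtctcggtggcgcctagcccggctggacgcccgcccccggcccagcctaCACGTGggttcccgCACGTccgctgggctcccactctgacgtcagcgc
Ldhb, chr6:142507958-142508207, minus strand: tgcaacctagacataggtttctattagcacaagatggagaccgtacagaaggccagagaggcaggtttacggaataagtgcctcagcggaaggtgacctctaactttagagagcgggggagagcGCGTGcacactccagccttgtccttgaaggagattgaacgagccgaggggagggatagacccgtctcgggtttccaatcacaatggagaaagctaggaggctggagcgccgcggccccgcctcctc
Pfkfb3, chr2:11502091-11502340, minus strand: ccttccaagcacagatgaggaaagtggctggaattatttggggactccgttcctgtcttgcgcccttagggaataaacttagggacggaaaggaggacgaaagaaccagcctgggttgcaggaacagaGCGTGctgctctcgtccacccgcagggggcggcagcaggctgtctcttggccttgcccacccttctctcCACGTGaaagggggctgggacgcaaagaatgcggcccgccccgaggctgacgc
Hk2, chr6:82774455-82774704, minus strand: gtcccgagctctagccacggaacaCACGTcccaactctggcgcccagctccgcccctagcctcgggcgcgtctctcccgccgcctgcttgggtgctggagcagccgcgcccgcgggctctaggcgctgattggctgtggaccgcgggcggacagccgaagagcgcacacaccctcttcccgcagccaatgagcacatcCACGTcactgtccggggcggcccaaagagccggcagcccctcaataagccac
Egln3, chr12:54203875-54204124, minus strand: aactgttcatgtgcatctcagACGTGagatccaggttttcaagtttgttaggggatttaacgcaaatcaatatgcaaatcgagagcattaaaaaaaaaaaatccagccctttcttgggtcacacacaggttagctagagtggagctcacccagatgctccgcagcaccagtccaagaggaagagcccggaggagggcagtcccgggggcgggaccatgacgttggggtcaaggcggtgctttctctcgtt
Ldha and Pfkfb3 each had 2 windows, of which the one with more matches is shown. The Ldha window shown held 5 matches, at 145, 144, 48, 47 and 34 bases before the start, within 2 CACGTG sequences and 1 single CACGT. It lies before an internal start, within the span of the annotated gene (46841475 to 46855627). The other Ldha window (chr7:46846832-46847081) held 1 match, at 59 bases, and no CACGTG. The Ldhb window, directly before the annotated gene, held 1 match at 126 bases. The Pfkfb3 window shown, before an internal start, held 3 matches, at 122, 53 and 52 bases, and the other (chr2:11553930-11554179), at the 5′ end of the annotated gene, held 1, at 60 bases, and no CACGTG. Hk2 had 2 matches, at 226 and 52 bases, and Egln3 had 1, at 229 bases. RefSeq windows were matched for 32 of the 36 genes, all but Epas1, Slc2a3, Bnip3l and Ndrg1. The element occurred in 37 of their 46 windows (80.4%), against 38.6% of 32851 windows of all genes. The windows were rich in CG, with a median of 14 CG pairs against 6 over all windows. Among the windows of all genes holding 9 to 21 CG pairs, the middle range of the 46, 59.1% held the element. The 80.4% covers all 46 windows, not only those in this range, so the 2 shares are not matched. The 36 genes were picked by function, HIF targets among them, so a higher share could follow from that choice alone. A match is a sequence of 5 letters and was not tied to binding in these cells.

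Slc16a1 and Slc16a3 encode the lactate transporters MCT1 and MCT4. Slc16a3 (chromosome 11, 120948480 to 120960868, plus strand), the exporter of highly glycolytic cells, was at 23.3 and 22.0 CPM in the brain libraries, 31.3 and 15.6 in the tMCAO blood libraries and 3.15 and 6.33 in the sham libraries. Both tMCAO groups lay above sham blood, and tMCAO blood enclosed the brain libraries. It rose 4.78-fold in tMCAO brain over sham blood (log2 2.26 ± 0.52, edgeR adjusted p = 0.0444), a call lost on leaving out any 1 of the brain and sham blood libraries (edgeR adjusted p 0.0838 to 0.268). With all 6 libraries the call was also lost, narrowly, with DESeq2 size factors (edgeR adjusted p = 0.05002), by limma-voom (0.0511) and with the replicate number as a block (edgeR, 0.0525). The difference of 2.31 ± 0.52 on the log2 scale for tMCAO blood over sham blood just missed the threshold (edgeR adjusted p = 0.0507), and that between tMCAO brain and tMCAO blood was -0.05 ± 0.49 (edgeR adjusted p = 0.961). The part of the monocyte and macrophage markers, whose sum was highest in the same 2 groups, was not tested here either. Slc16a1 lay between 9.88 and 16.3 CPM in the 6 libraries and was called nowhere.

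Among the other HIF targets, Bnip3 and Bnip3l encode related receptors that direct mitochondria to autophagy, and their levels were ordered differently over the groups. Bnip3 (chromosome 7, 138890836 to 138909519, minus strand) stood at 44.1 and 36.4 CPM in the brain libraries, 10.2 and 3.99 in the tMCAO blood libraries and 8.34 and 8.94 in the sham libraries. The brain libraries lay above the 4 blood libraries. Bnip3 rose 5.66-fold over tMCAO blood (log2 2.50 ± 0.50, edgeR adjusted p = 0.0472) and 4.65-fold over sham blood (log2 2.22 ± 0.50, edgeR adjusted p = 0.0423). The first call was lost without any library but tMCAO blood 1 (edgeR adjusted p 0.0776 to 0.132), and the second on leaving out any 1 of the brain and sham blood libraries (0.074 to 0.263). Bnip3l (chromosome 14, 66985239 to 67008877, minus strand), also called Nix, is known for clearing mitochondria from maturing red cells. It was at 228 and 137 CPM in the brain libraries, 147.5 and 179.8 in the tMCAO blood libraries and 1252 and 1437 in the sham libraries. Both sham blood libraries were far above the other 4, which overlapped. Bnip3l fell in tMCAO blood, 8.22-fold below sham blood (log2 -3.04 ± 0.39, edgeR adjusted p = 0.0313) and in tMCAO brain, 7.36-fold below sham blood (log2 -2.88 ± 0.39, edgeR adjusted p = 0.0144). Both calls were lost without sham blood 1 or sham blood 2, and the first also without tMCAO blood 1 (edgeR adjusted p 0.0931 to 0.262 for the first, 0.114 and 0.117 for the second). Red cell genes were likewise highest in sham blood (15.3% and 16.7% of counts, against 3.82% in tMCAO blood 2 and 0.107% or less in the other 3 libraries), and their part in the Bnip3l result was not tested. The libraries tMCAO brain 1 and 2, with Bnip3l at 228 and 137 CPM, held 29 and 7 counts of red cell genes.

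Vegfa (chromosome 17, 46016993 to 46032369, minus strand), the growth factor of blood vessels, was high in tMCAO brain. It stood at 68.2 and 62.95 CPM in the brain libraries, 3.77 and 0 in the tMCAO blood libraries and 0.0642 and 0.0704 in the sham libraries, where each library held a single count. Vegfa rose in tMCAO brain over sham blood (edgeR adjusted p = 0.0359), with a ratio of 969 over the 2 sham blood counts and a 95% counting interval of 268 to 8006. Against tMCAO blood, where 1 library held 70 counts and the other 0, the log2 difference of 5.12 ± 1.48 did not pass (edgeR adjusted p = 0.0893), nor did that of 4.67 ± 2.02 between tMCAO blood and sham blood (edgeR adjusted p = 0.184). The call was lost on leaving out any 1 of the brain and sham blood libraries (edgeR adjusted p 0.0586 to 0.241) and, with all libraries, by limma-voom (adjusted p = 0.05009). Adm, which encodes the vasodilator adrenomedullin, had 6.96 and 2.25 CPM in the brain libraries, 0.592 and 0 in the tMCAO blood libraries and 0 counts in both sham libraries. Its level in tMCAO brain was at least 41.2-fold higher than in sham blood, taking 3 counts over the group as the floor, with an edgeR adjusted p of 0.0764.

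The remaining HIF targets passed in no comparison. Ddit4, a stress-induced inhibitor of mTOR signalling, was highest in the tMCAO blood libraries, with 10.5 and 23.1 CPM, and stood at 0.847 and 3.02 CPM in the brain libraries and 3.27 and 3.10 in the sham libraries. Ddit4 of tMCAO brain differed from tMCAO blood by -3.10 ± 0.76 on the log2 scale (edgeR adjusted p = 0.0686). P4ha1, a collagen prolyl hydroxylase, was at 255 and 186 CPM in the brain libraries, 126 and 65.2 in the tMCAO blood libraries and 105.6 and 145.5 in the sham libraries, with both brain libraries highest. Ankrd37 ranged from 3.40 to 17.6 CPM and Ndrg1, a stress-responsive gene, from 8.23 to 19.0 CPM, both without separation of brain from the other groups.

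Ratios of related genes within a library do not depend on how libraries are scaled. Ldha counts exceeded Ldhb counts 2.25-fold and 2.49-fold in tMCAO brain, 124-fold and 20.3-fold in tMCAO blood, and 10.7-fold and 10.1-fold in sham blood. The brain ratios were the lowest, and the groups were separate. Hk2 counts exceeded Hk1 counts 8.47-fold and 4.60-fold in tMCAO brain, and were 2.60 and 0.944 times them in tMCAO blood. In sham blood Hk1 exceeded Hk2, 2.91-fold and 3.29-fold. For the glucose transporters, Slc2a1 exceeded Slc2a3 4.58-fold and 6.43-fold in tMCAO brain and 6.22-fold in tMCAO blood 1. Slc2a3 exceeded Slc2a1 in the other 3 libraries, 1.42-fold in tMCAO blood 2 and 3.51-fold and 3.61-fold in sham blood. Egln1 exceeded Egln3 18.7-fold and 17.0-fold in tMCAO blood and 3.96-fold and 3.61-fold in sham blood, whereas in tMCAO brain the 2 were near parity (1.37 and 0.93). Bnip3l exceeded Bnip3 5.17-fold and 3.77-fold in tMCAO brain, 14.4-fold and 44.8-fold in tMCAO blood, and 149.5-fold and 160.2-fold in sham blood. Hif1a exceeded Epas1 33.1-fold and 32.8-fold in the brain libraries, 28.8-fold and 24.7-fold in the tMCAO blood libraries, and 251-fold and 275-fold in the sham libraries, which stood apart but held 4 Epas1 counts each. With 5 counts added to both genes the log2 ratio of Epas1 to Hif1a in the sham libraries moved from -7.97 and -8.10 to -6.98 and -7.11, still below the other 4 libraries (-5.00 to -4.56). These ratios were given no test.

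**Figure D3:**
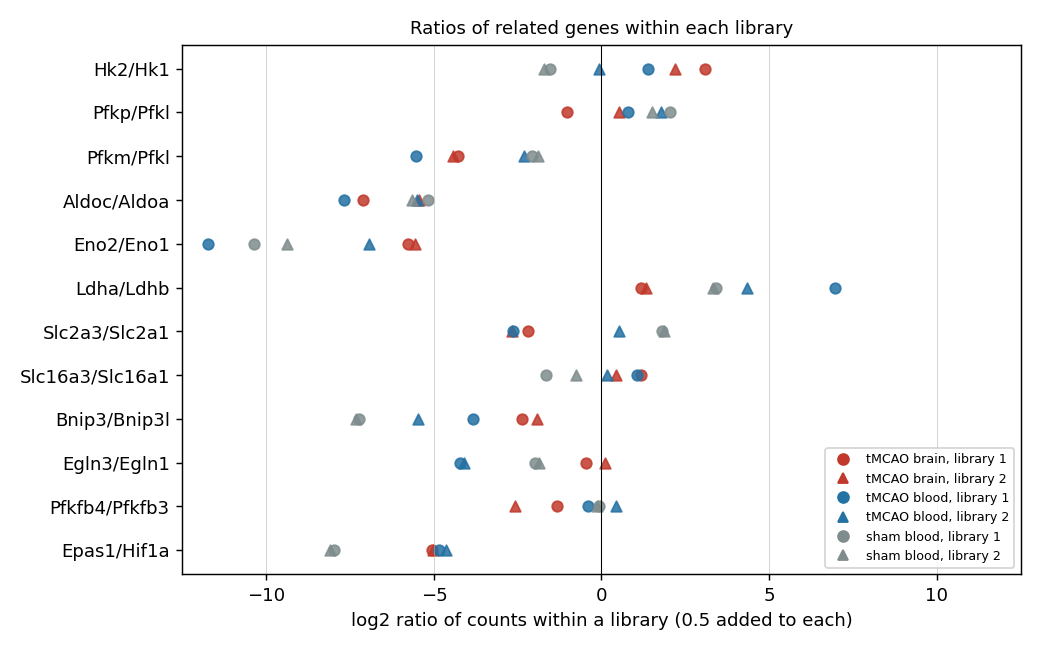
Log2 ratio of the counts of 2 related genes within each library, 0.5 added to each count, for 12 pairs, with colours for groups and shapes for library numbers. The Ldha/Ldhb ratio of tMCAO brain (2.25 and 2.49 before the log) lies left of all 4 blood libraries, and the Hk2/Hk1 ratio falls on both sides of the line at equal counts.

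Mean levels were also divided by the kilobases of annotated exon, merged over all transcripts of a gene. A gene expressed as a transcript shorter than this merged length gets too low a value, so the order of genes is approximate. In tMCAO brain the highest were Aldoa at 227 CPM per kb, Gapdh at 223, Ldha at 202, Ldhb at 178 and Tpi1 at 154. In tMCAO blood Ldha stood at 239 CPM per kb, Gapdh at 168.5 and Aldoa at 125.5, and Ldhb at 11.0. In sham blood Bnip3l came first at 348 CPM per kb, then Ldha at 249.7, Gapdh at 168 and Eno1 at 135, with Ldhb at 50.6. The annotation holds 2 gene records named Aldoa, whose exons were merged for its length. By this measure Ldhb was close to Ldha in tMCAO brain alone of the 3 group means, with merged lengths of 1570 and 3310 bases. Without division by length, Ldha counts exceeded Ldhb counts there 2.25-fold and 2.49-fold.

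The 17 enzymes together took overlapping shares of the counts in tMCAO brain and tMCAO blood. They held 0.43% and 0.503% of the brain library counts, 0.474% and 0.279% of those of the tMCAO blood libraries and 0.372% and 0.378% of those of the sham libraries. The 95% Wilson intervals, which cover counting error only, were narrow, such as 0.375% to 0.381% for sham blood 2. The 2 tMCAO blood libraries enclosed those of sham blood, and tMCAO brain 1 lay between them. With red cell and mitochondrially encoded counts left out of the totals, the sham blood shares became 0.457% and 0.467%. Those of tMCAO brain became 0.4375% and 0.519%, and those of tMCAO blood 0.492% and 0.305%. On these totals tMCAO brain 1 lay below both sham blood libraries. Over the 6 libraries the enzymes spanned 0.279% to 0.503% and the T cell genes 0.03% to 0.916%.

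**Figure D4:**
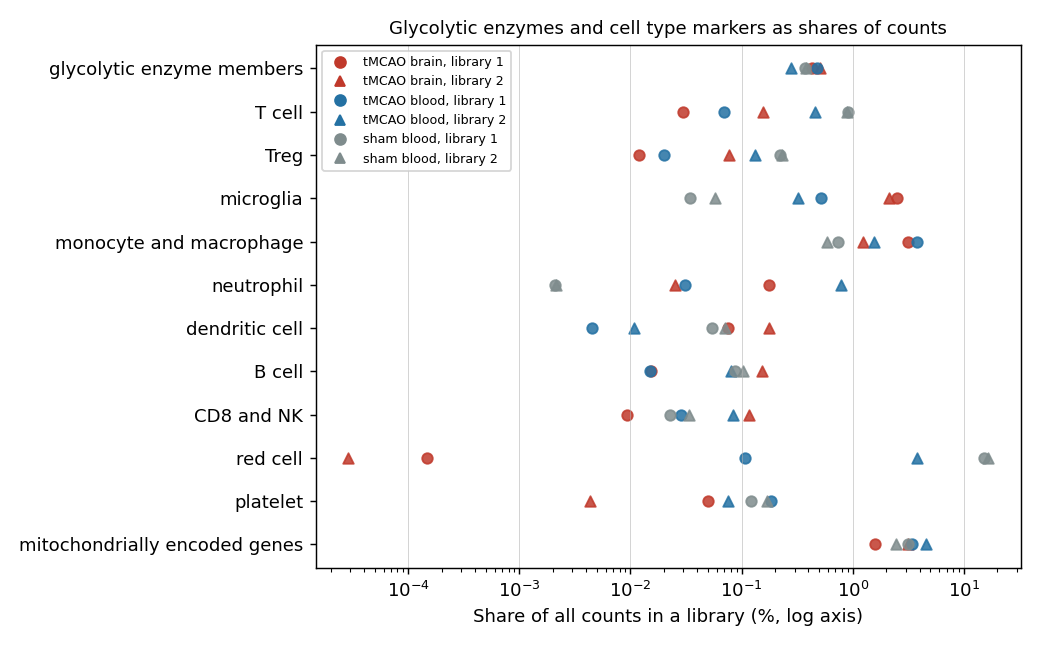
Share of all counts taken by the 17 glycolytic enzymes and by marker lists of cell types in each library, in percent on a log axis, with colours for groups and shapes for library numbers. The enzymes lie between 0.279% and 0.503%, while the red cell genes reach 16.7% in sham blood and at most 0.000146% in tMCAO brain.

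Other genes of the pathways were read from lists that did not include the 36. Of 25 further HIF targets 21 were tested, and 1, 2 and 4 rose with 0 lower in tMCAO brain against tMCAO blood, tMCAO blood against sham blood and tMCAO brain against sham blood. By unadjusted p under 0.05 the lower counts were 1, 1 and 0, by DESeq2 1, 1 and 0, and by limma-voom 1, 0 and 0. The medians of the list were 0.95, 0.54 and 2.32 on the log2 scale, against 0.06, 0.11 and 0.09 over all genes. Bhlhe40, a transcription repressor induced by hypoxia and by T cell activation, stood at 230.3 and 376 CPM in the brain libraries, 67.5 and 43.2 in the tMCAO blood libraries and 10.1 and 9.50 in the sham libraries. It rose in every comparison, 5.48-fold, 5.63-fold and 30.9-fold (edgeR adjusted p = 0.0303, 0.0313 and 0.00841). Plod1, a lysyl hydroxylase of collagen, and Car9, a carbonic anhydrase, rose 9.87-fold and 4.99-fold in tMCAO brain over sham blood (edgeR adjusted p = 0.0279 and 0.048). The calls of these 3 genes against sham blood were lost without sham blood 1 or sham blood 2, that of Bhlhe40 in tMCAO blood also without tMCAO blood 1, that of Plod1 also without tMCAO brain 1, and that of Car9 without any 1 of the 6 libraries (edgeR adjusted p 0.0606 to 0.29 where lost). The Bhlhe40 call between tMCAO brain and tMCAO blood was lost without any library but tMCAO brain 1 (0.0616 to 0.0982).

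Of 20 further genes of glycolysis and glycogen use 15 were tested. Pygl, which breaks down glycogen, rose in both tMCAO groups over sham blood, 19.7-fold in blood and 5.64-fold in brain (edgeR adjusted p = 0.0313 and 0.0252). Slc2a6, a glucose transporter known from inflammatory macrophages, rose 8.99-fold in tMCAO blood over sham blood (edgeR adjusted p = 0.0451), and Hk3, the myeloid hexokinase, 20.1-fold in tMCAO brain over sham blood (0.0371). Bpgm, which makes the red cell metabolite 2,3-bisphosphoglycerate, was 279-fold lower in tMCAO brain than in sham blood (edgeR adjusted p = 0.0277). It stood at 4576 and 6277 CPM in sham blood, the libraries with the highest red cell share. All 5 calls were lost without sham blood 1 or sham blood 2. They were also lost without tMCAO brain 1 for Hk3, Bpgm and Pygl in brain, without tMCAO brain 2 for Bpgm, without tMCAO blood 1 for Pygl in blood, and without any library but tMCAO blood 2 for Slc2a6 (edgeR adjusted p 0.0563 to 0.292 where lost).

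Mitochondrial pyruvate entry gave 1 call among 12 genes tested. Mpc1, a subunit of the pyruvate carrier, rose 2.56-fold in tMCAO brain over tMCAO blood (edgeR adjusted p = 0.0488), with 52.5 and 53.4 CPM against 23.9 and 17.5 CPM. Pgd, the second dehydrogenase of the pentose phosphate pathway, was the 1 called gene of 7 in that list, 3.37-fold higher in tMCAO blood than in sham blood (edgeR adjusted p = 0.0397). Of 8 tested partners of the HIF pathway, Vhl, the recognition subunit that sends HIF to degradation, rose 2.61-fold in tMCAO brain over sham blood (edgeR adjusted p = 0.0353). Of 11 tested upstream regulators, Rptor, a subunit of mTOR complex 1, rose 2.81-fold in the same comparison (edgeR adjusted p = 0.0387). The Mpc1 call was lost without any 1 of the 6 libraries (edgeR adjusted p 0.0757 to 0.154), that of Pgd without tMCAO blood 1, sham blood 1 or sham blood 2 (0.12 to 0.322), and those of Vhl and Rptor on leaving out any 1 of the brain and sham blood libraries (0.0639 to 0.283).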

How the data were processed

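Messenger RNA of 6 bulk libraries was measured with a SMART-Seq ultralow input kit, Nextera XT libraries and paired-end sequencing on a NextSeq 500, per the labels' protocols. Reads from PCR-amplified cDNA without molecular identifiers are not independent molecules, so intervals and floors hold counting error alone. The authors deposited whole-number read counts per gene, obtained with STAR, HTSeq 0.11.2 and the mouse build GRCm38, per the submitters' processing notes. Strand setting, annotation release and handling of multi-mapping reads are not given in the sources used here. Of the 36 genes, 7 overlap another protein-coding gene (Hif1a, Pfkm, Pfkp, Aldoa, Tpi1, Gapdh and Ankrd37), so reads of the partners may be mixed, and 0 of the 7 were called. Rows of 20 near-copies held at most 2.02% of their gene's count in any library. Coordinates and exon lengths come from GENCODE M21 and promoters from RefSeq.

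After filterByExpr (minimum count 10) and TMM scaling, genes were tested by edgeR 4.0.16 (quasi-likelihood, R 4.3.3) in 1 fit of all 6 libraries, with 3 residual degrees of freedom and no covariate. P-values were adjusted by Benjamini-Hochberg over 16657 genes within each comparison, and 0.05 was the threshold. Standard errors are the log2 difference over the root of its F statistic. The test was checked on simulated counts. Libraries of a group were no copies of each other (chi-square over its degrees of freedom 204, 219 and 25.3 for tMCAO brain, tMCAO blood and sham blood). Alternatives were DESeq2 size factors, library totals, no filter, a stricter filter (5 CPM in 2 libraries), DESeq2 1.42.0, limma-voom (limma 3.58.1), only the 2 groups compared, the replicate block and libraries left out. All 36 genes are named. From each other list up to 4 called genes were named by smallest adjusted p. Of these, 1 gene is not reported here. Genes, lists, tests and marker genes were chosen with earlier results of these data known.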

Additional observations from a re-analysis of the deposited data

How the results depend on the processing

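Every called gene among the 36 kept its direction under all 15 alternatives of its comparison, but the number of calls moved. In what follows counts are given as genes of the 36 higher and lower, then all genes called, for tMCAO brain against tMCAO blood, tMCAO blood against sham blood and tMCAO brain against sham blood. The reported counts were 4, 0 and 816, 2, 1 and 1246, and 7, 1 and 1772. Without the filter on low counts they were 10, 2 and 3598, 6, 3 and 3611, and 16, 2 and 4458. By DESeq2 they were 7, 2 and 3451, 5, 3 and 3806, and 16, 2 and 4007. By limma-voom the first comparison had 7, 1 and 1446, and the second had 1, 2 and 1146. The stricter filter gave 1 lower and 1237 genes in the first comparison, and library totals gave 1 lower and 853 genes there. A fit of only the 2 groups compared gave 0 higher and 26 genes in the first comparison, against 15, 2 and 2752 in the third. Without tMCAO brain replicate 1 and tMCAO blood replicate 1 together, 16, 3 and 3609, 4, 5 and 3850, and 15, 2 and 4979 were called. With each library left out in turn, the ranges were 0 to 5 higher, 0 lower and 31 to 313 genes, then 0 to 5, 0 to 3 and 0 to 1240, then 0 to 15, 0 to 2 and 0 to 2080. The third comparison lost all calls without sham blood 1 or sham blood 2, as did the second, and the second also without tMCAO blood 1. The cause of these shifts was not tested. A fit with fewer libraries has fewer degrees of freedom, but some of the shifts came with all 6 libraries in the fit. The enzyme shares of sham blood moved to 0.457% and 0.467% without red cell and mitochondrial counts.

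With the replicate number as a block, 3 of the 36 were higher and 0 lower in the first comparison. The counts were 2 and 2 in the second, and 9 and 2 in the third. Of all 16657 genes tested, 576 were higher and 227 lower, 768 and 550, and 1416 and 561, in the same order. The block ended the calls of Egln3 in the first and Slc16a3 in the third, and added Ldhb in the second and Adm, Ldhb, Slc2a3 and Tpi1 in the third. The labels do not say that a shared number marks a shared mouse, batch or day, so pairing was not assumed. The differences between libraries 1 and 2 correlated over genes at 0.30 between tMCAO brain and tMCAO blood, -0.07 between tMCAO blood and sham blood, and -0.03 between tMCAO brain and sham blood.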
